A study of Mus musculus with 10 samples.

Results

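The guanylate-binding proteins (GBPs) and the immunity-related GTPases (IRGs) were followed in the preoptic region of the mouse hypothalamus after lipopolysaccharide (LPS), the bacterial cell wall component. The genes taken were Gbp2, Gbp3, Gbp5, Gbp6, Gbp7, Iigp1, Igtp, Irgm1 and Irgm2, each through every probe set that the platform annotation gives to that gene alone. Of the 9 genes 8 had such a probe set, and Gbp5 was not analysed here. The 8 genes, 4 GBPs and 4 IRGs, had 12 of the 34945 probe sets that name 1 gene, and all 8 were bright enough to be among the 10916 genes tested.

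All 10 mice were of the DBA1/lacJ strain and received LPS at 120 µg/kg into the peritoneum, and the brains were taken 5 h later. Labels put 5 mice in the wild-type group (WT) and 5 in the group lacking microsomal prostaglandin E synthase-1 (KO), the enzyme that Ptges encodes and that makes prostaglandin E2 in inflammation. The preoptic region, where prostaglandin E2 acts to raise body temperature, was cut out by laser. Its RNA went through 2 rounds of amplification before it was put on arrays, 1 for each mouse. The comparison asks which transcripts differ between the genotypes during the response to LPS. The labels give neither age nor sex, and do not say which part of Ptges was removed or in which cells. Mice that had no LPS were not analysed here, and how far LPS itself raised any gene was not measured.

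GBPs and IRGs are GTPases that vertebrate cells make in quantity when interferons, above all interferon-gamma, reach them. They attach to the membranes around intracellular bacteria and parasites, help to break these open, and pass the exposed bacterial material to inflammatory caspases. In the IRG family the effector Iigp1 coats such vacuoles, while Irgm1, Igtp (also called Irgm3) and Irgm2 sit on the cell's own membranes and keep the effectors inactive there. Brain endothelial cells and glia are known to make these proteins when interferon signalling is on.

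Interferon acts on these genes through 2 kinds of DNA element, the interferon-stimulated response element (ISRE) and the gamma-activated site (GAS). The promoters are shown as background, and any part of these elements in the correlations further on was not tested. RefSeq (GRCm38.p6) held a promoter for 6 of the 8 genes, Gbp2, Gbp3, Gbp7, Irgm1, Igtp and Irgm2. The core of the ISRE, the letters GAAA, then any 2 bases, then GAAA, was searched for on both strands in the 250 bases before each start. It was found at 1 or more starts of 6 of the 6 genes. Counted by promoter and not by gene, it was in 978 of 32851 promoters of the table, 2.98%. A gene with several starts has more chances of a match, so these shares are unlike measures. Gbp3 has more than 1 start in the table, and the window shown belongs to the start that has the core. In each of the following windows of 120 bases, printed 5′ to 3′ on the strand of the gene, capitals mark the bases that match the ISRE core on either strand.
Gbp2, chr3:142620543-142620662, + strand: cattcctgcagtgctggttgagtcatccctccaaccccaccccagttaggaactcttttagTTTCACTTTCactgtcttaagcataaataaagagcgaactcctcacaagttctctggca
Gbp3, chr3:142559924-142560043, + strand: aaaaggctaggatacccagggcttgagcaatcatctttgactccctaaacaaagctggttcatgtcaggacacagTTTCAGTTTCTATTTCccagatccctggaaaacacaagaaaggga
Gbp7, chr3:142530216-142530335, + strand: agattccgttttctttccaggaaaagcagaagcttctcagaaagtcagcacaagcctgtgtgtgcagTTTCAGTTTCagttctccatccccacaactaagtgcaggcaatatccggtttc
Irgm1, chr11:48871421-48871540, - strand: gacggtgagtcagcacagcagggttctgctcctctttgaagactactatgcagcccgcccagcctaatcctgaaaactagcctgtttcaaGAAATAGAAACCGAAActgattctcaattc
Igtp, chr11:58199436-58199555, + strand: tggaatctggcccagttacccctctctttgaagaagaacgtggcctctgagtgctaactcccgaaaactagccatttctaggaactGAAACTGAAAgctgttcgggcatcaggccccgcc
Irgm2, chr11:58214857-58214976, + strand: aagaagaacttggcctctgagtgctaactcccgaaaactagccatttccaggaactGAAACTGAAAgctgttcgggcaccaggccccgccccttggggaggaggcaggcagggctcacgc
In the 3 GBP windows the core read as TTTC repeats, that is on the strand opposite to the gene, at 59 to 50 bases before the start in Gbp2 and 53 to 44 bases before it in Gbp7. The 3 IRG windows held it on the strand of the gene. Gbp3 and Irgm1 each had 2 matches that overlap, so that their capitals run over 16 bases. Igtp and Irgm2 shared the same core, GAAACTGAAA, at 34 and 64 bases before the start. Their windows had 87 identical bases over 150 alignment columns, 58.0%, the highest share of the 15 pairs of windows. Gaps count among the columns, since the shared stretch sits further from the start in Irgm2, so 58.0% understates its likeness. The GAS letters TTCNNNGAA, which read the same on both strands, were found for 3 of the 6 genes, Gbp7, Igtp and Irgm2. Counted by promoter, they were in 7.02% of the table. These matches are letters in a window and no measure of binding.

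Before the results, some facts of the arrays are needed. Every array had been scaled by the authors to the same trimmed mean intensity, 200.002. RNA spike-ins added before labelling gave no signal on WT replicates 2 and 5 and KO replicate 3. The ratio of Gapdh signal at the 3′ end to the 5′ end ran from 24.6 to 53.4 in the WT group and from 33.2 to 51.5 in the KO group. The Ptges transcript was not lower on the arrays labelled KO. Its probe set 1439747_at read 1.51 to 9.33 on the arrays labelled WT and 17.5 to 76.1 on those labelled KO, and the other 2 overlapped between groups. In limma over all probe sets 1439747_at did not pass (adjusted p = 0.091), and the groups stood apart in 3.37% of all probe sets. The gene was too dim to be among those tested, and all its probe sets were dim. Where these probe sets lie relative to the removed part of the gene is not known here, so WT and KO stand for the labels throughout. Of 10 listed marker genes of preoptic neurons 9 were measured, and 7 were bright enough to test. Gal read 1158 to 1982 and Esr1 303 to 583 over all arrays. Hmx2, at 17.1 to 75.9, and Nkx2-1, at 13.0 to 67.6, were too dim to test.

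None of the 8 genes passed the test between the labelled genotypes. In limma, with Benjamini-Hochberg adjustment over all 10916 genes, 0 of 8 passed an adjusted p of 0.05, against 0.0733% of all genes tested. At an unadjusted p under 0.05 the count was 0 of 8, against 17.2% of all genes. In 0 of 8 did the 5 WT and 5 KO values stand apart, against 4.68% of all genes. In the arrays labelled KO 5 of the 8 were lower and 3 were higher, where 50.9% of all genes were lower. The median difference over the 8 genes, KO minus WT on the scale log2(intensity + 16), was -0.06, and over all genes it was -0.01. Its sign depended on the arrays used. The median was 0.47 with the 7 arrays that had spike-in signal, and without WT replicate 5 it was 0.30, with 0 of 8 past the threshold in both. The tissue was bulk, so fewer cells of a type and less RNA per cell cannot be told apart in any value. Intensities belong to 1 probe set each and are not compared between genes.

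Gbp2, which takes part in opening pathogen vacuoles, read 949, 1336, 750, 1070 and 2766 on WT replicates 1 to 5 with probe set 1418240_at. On KO replicates 1 to 5 it read 1881, 773, 1365, 1638 and 1537. The WT array of replicate 5 was the highest of all 10, and the groups overlapped. The means were 1374 ± 806 (SD, n = 5) in WT and 1439 ± 417 (SD, n = 5) in KO, and the difference on the log2 scale was 0.16 (SE 0.30, 95% interval -0.47 to 0.79, limma adjusted p = 0.815). A brighter Gbp2 probe set, 1435906_x_at, whose name marks probes that can also bind other transcripts, had a range of 5325 to 13857 in WT and 4056 to 8770 in KO. It also peaked in WT replicate 5 and overlapped between groups.

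Gbp3, a neighbour of Gbp2 on chromosome 3, was the member that followed the others least. The WT arrays gave 926, 1455, 1023, 758 and 2153. The KO arrays gave 1203, 1479, 1294, 2488 and 1653. KO replicate 4 was the highest here, and KO replicate 2, the lowest KO array in the other 7 genes, was in the middle of its group. The KO mean of 1623 ± 514 (SD, n = 5) stood beside a WT mean of 1263 ± 560 (SD, n = 5), a log2 difference of 0.41 (SE 0.25, 95% interval -0.13 to 0.95, limma adjusted p = 0.426). Leaving out 1 array moved it between 0.24 and 0.62, and with the 7 arrays that had spike-in signal it was 0.87 (limma adjusted p = 0.196).

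Gbp6 lies apart from the other measured GBPs, on chromosome 5. Probe set 1447927_at read 864, 2592, 1877, 2463 and 4767 in WT. In KO it read 2416, 793, 1843, 2136 and 1299. The lowest KO array, replicate 2, lay close to the lowest WT array, replicate 1, and the log2 difference was -0.46 (SE 0.36, 95% interval -1.23 to 0.31, limma adjusted p = 0.532). Its second probe set, 1438676_at, gave a difference of -0.02 (SE 0.32), so the lower KO mean of Gbp6 rested on 1 of its 2 probe sets. With 1447927_at the difference ran from -0.79 to -0.18 when 1 array was left out, and was -0.06 with the arrays that had spike-in signal.

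Gbp7, known for helping to assemble the phagocyte oxidase, was measured by 2 probe sets that did not tell the same story. The brighter, 1434380_at, gave 75.9, 379, 160, 196 and 496 in WT. In KO it gave 414, 147, 221, 322 and 169. WT replicates held both the lowest and the highest of the 10 values, and the difference was 0.12 (SE 0.39, 95% interval -0.71 to 0.95, limma adjusted p = 0.905). The dimmer, 1425156_at, read 150, 152, 104, 94.7 and 278 in WT. Its KO values were 105, 55.0, 76.1, 89.7 and 72.7, lower than all WT values on 4 of the 5 arrays. In the fit over all probe sets its difference was -0.77 (SE 0.27, 95% interval -1.34 to -0.21, unadjusted p = 0.010, limma adjusted p = 0.240).

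Igtp, the endoplasmic reticulum member of the regulatory IRGs, had the largest ratio of highest to lowest array among the 8. Its WT values were 1025, 2448, 1491, 2381 and 5800. Its KO values were 2581, 537, 1583, 1738 and 1570. The highest array, WT replicate 5, was 10.8 times the lowest, KO replicate 2. Igtp also had the most negative difference of the 8 genes in this fit, -0.62, but with a wide error (SE 0.41, 95% interval -1.48 to 0.25, limma adjusted p = 0.460). Leaving out 1 array moved it between -0.89 and -0.27, and with the 7 arrays that had spike-in signal it was -0.14.

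Irgm1, the regulatory IRG needed for resistance to mycobacteria, read 196, 425, 272, 298 and 1123 in WT. In KO it read 459, 188, 288, 438 and 407. A single array, WT replicate 5, stood above the rest at 2.64 times the next WT array, and the KO values lay within the WT range except for KO replicate 2. The difference was -0.15 (SE 0.36, 95% interval -0.93 to 0.62, limma adjusted p = 0.858).

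Irgm2, the Golgi member of the regulatory group, gave 372, 1376, 546, 1052 and 2420 in WT. It gave 1759, 429, 1330, 1159 and 578 in KO. Within each group the lowest and highest arrays were far apart, the ratio of highest to lowest being 6.50 in WT and 4.10 in KO, and the log2 means differed by -0.02 (SE 0.44, 95% interval -0.96 to 0.92, limma adjusted p = 0.987). With an interval this wide, a change of nearly 1 on the log2 scale in either direction was not excluded.

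Iigp1, the effector that coats parasite vacuoles, lies on chromosome 18. Its brighter probe set, 1419043_a_at, read 586, 1033, 548, 1053 and 3065 in WT. The KO arrays read 1099, 525, 1328, 1343 and 709, and WT replicate 5 was 2.91 times the next WT array. The difference was -0.11 (SE 0.38, 95% interval -0.92 to 0.70, limma adjusted p = 0.910). With probe set 1419042_at WT replicates 2 and 5 were close to each other, at 1095 and 1044, and the difference was 0.10 (SE 0.38).

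**Figure D1:**
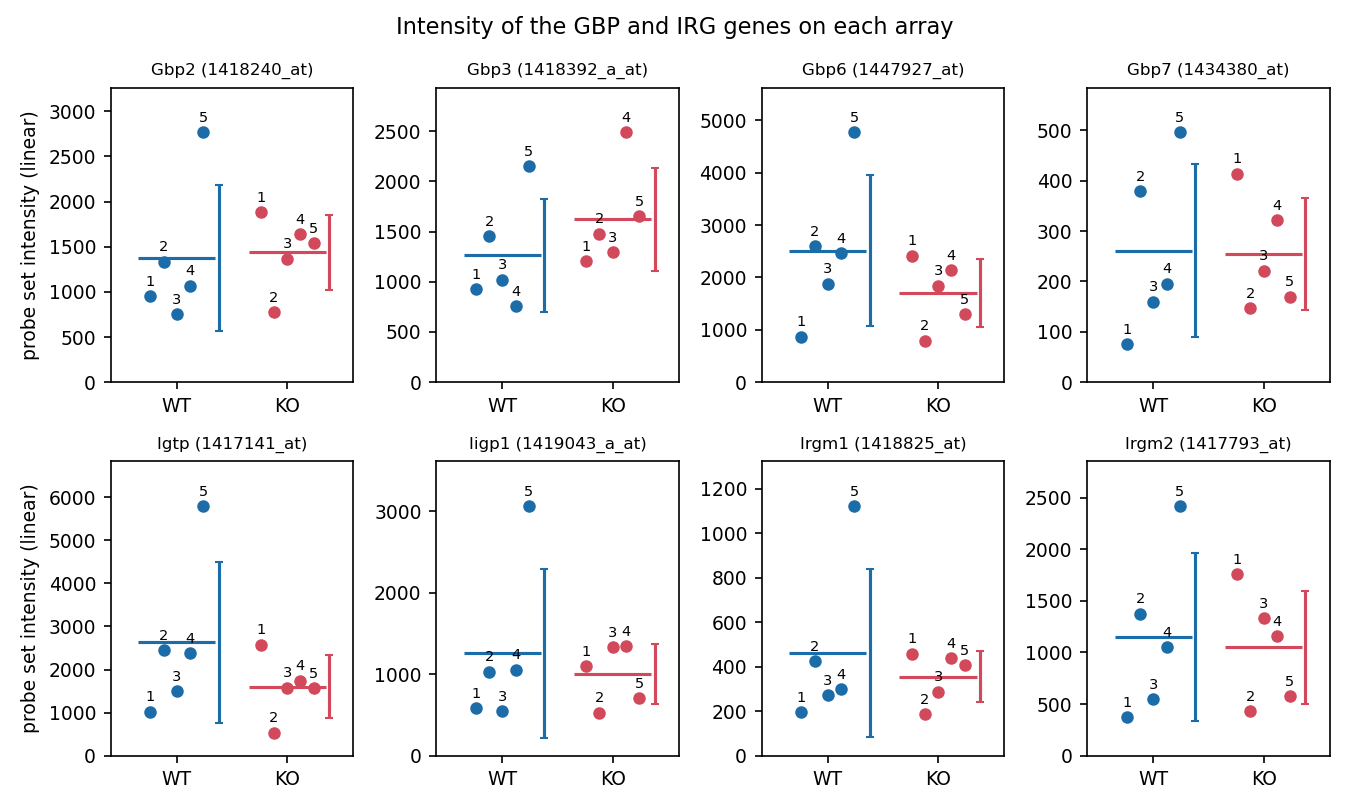
Intensity of the chosen probe set of each of the 8 genes (linear scale from 0, a separate axis for each gene) on the 5 arrays labelled WT (blue) and the 5 labelled KO (red). Numbers are replicate numbers, lines are group means and bars are 1 SD. WT replicate 5 is the highest WT point in all 8 panels, and KO replicate 2 is the lowest KO point in all but that of Gbp3.

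At the level of probe sets 0 of the 12 passed limma's adjusted p of 0.05, as did 0 of all 34945 (0%), and 1 of the 12 had an unadjusted p under 0.05, against 13% of all. The groups overlapped in all 12, where they stood apart in 3.37% of all probe sets. The 95% intervals of 11 of the 12 differences included 0, and the exception was Gbp7 with 1425156_at.

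**Figure D2:**
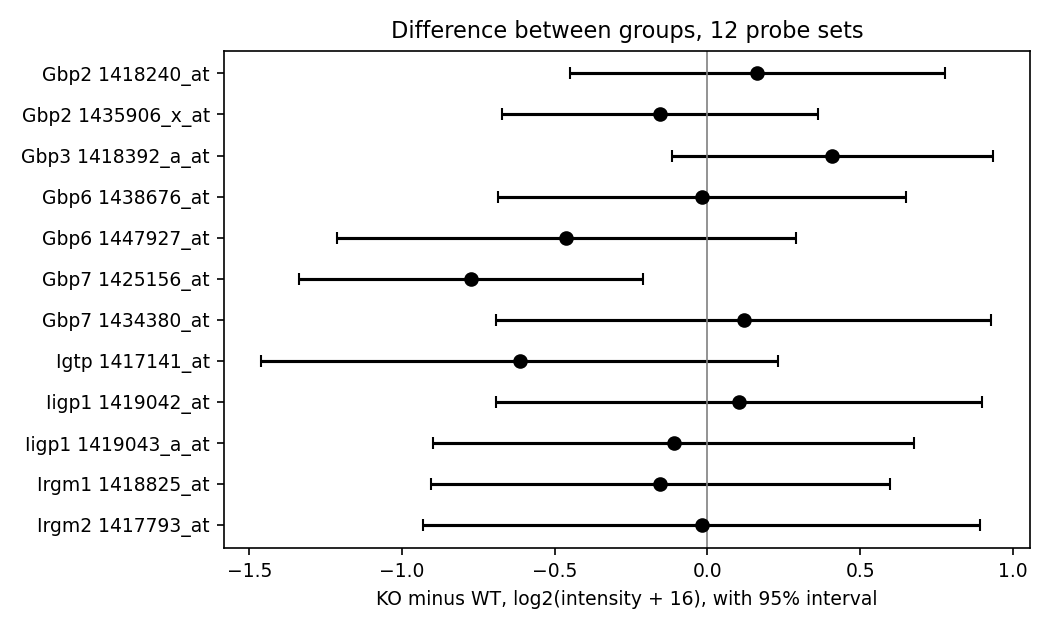
Difference between the groups, KO minus WT, on the log2(intensity + 16) scale for each of the 12 probe sets, from limma fitted over 34945 probe sets. Points are the differences and bars their 95% intervals. All intervals cross 0 apart from that of Gbp7 1425156_at, -1.34 to -0.21, which did not pass after adjustment.

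What the 8 genes did show was a wide spread between mice of the same group. The SD of log2(intensity + 16) within the WT group had a median of 0.93 over the 8 genes, against 0.34 over all genes tested. Within the KO group it was 0.59, against 0.27. The narrowest of the 8, Gbp3, was still at the 88.3rd percentile of all genes in WT and the 80.6th in KO. Irgm2 was the widest, with an SD of 1.05 in WT and 0.84 in KO. In 8 of 8 genes the WT group had the larger SD, as in 65.8% of all genes. This order rested on WT replicate 5. Without that array the WT median fell to 0.55, below the KO median, and the WT SD was the larger in 3 of 8.

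The spread came from the same arrays in gene after gene. WT replicate 5 was the highest WT array in 8 of 8 genes, as it was in 15.9% of all genes. It exceeded the mean of the other WT arrays by a median of 1.57 on the log2 scale over the 8 genes, while over all genes the median was -0.01. WT replicate 1 was the lowest of its group in 5 of 8, and WT replicate 3 in 2. In the KO group replicate 2 was lowest in 7 of 8, against 20.3% of all genes, and lay below the other KO arrays by a median of -1.03. KO replicate 1 was highest in 6 and KO replicate 4 in the other 2. Averaged over the 8 genes, the log2 level was 8.96, 10.18, 9.37, 9.79 and 11.16 on WT replicates 1 to 5. It was 10.29, 8.98, 9.90, 10.21 and 9.66 on KO replicates 1 to 5. The lowest arrays of both groups were thus level, and the mean of the groups was 9.89 ± 0.84 (SD, n = 5) in WT and 9.81 ± 0.53 (SD, n = 5) in KO.

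**Figure D3:**
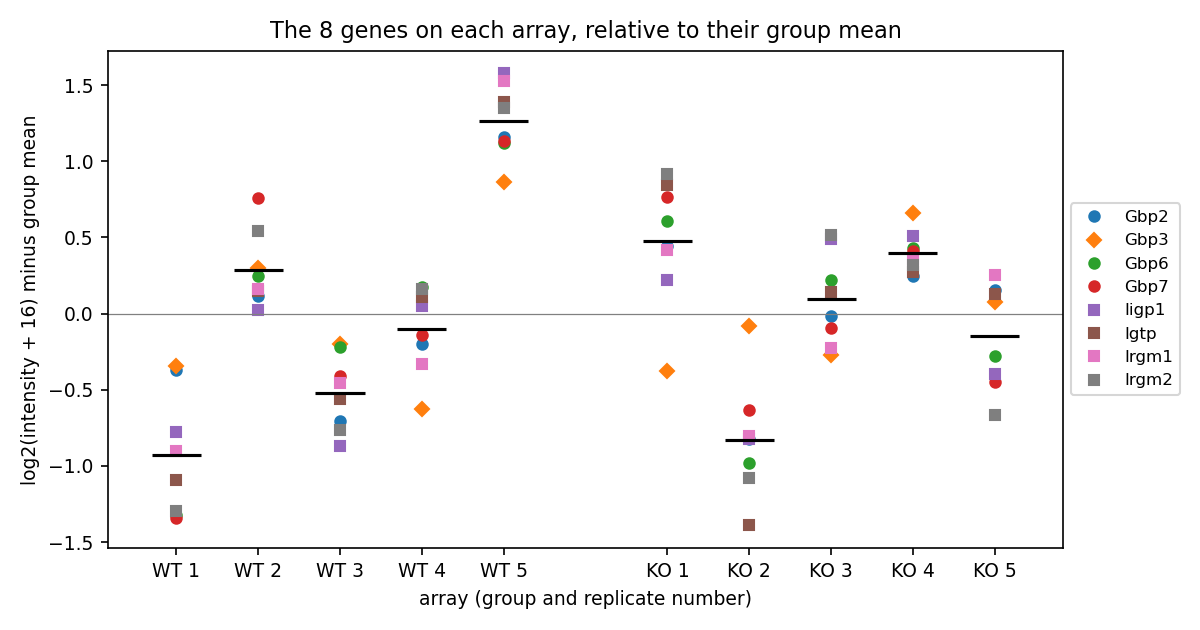
Log2(intensity + 16) of each of the 8 genes minus its mean in that array's group, by array. Circles are GBPs, squares are IRGs, diamonds are Gbp3, and black bars are the means over the 8 genes. The bars run from -0.93 on WT replicate 1 to 1.26 on WT replicate 5, and from -0.83 on KO replicate 2 to 0.48 on KO replicate 1.

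WT replicate 5 also stood out in other measures. It had the lowest Gapdh ratio of the 10 arrays, 24.6, and the lowest hybridization control signal in WT, 10.79 on the log2 scale. That signal was 11.50 to 12.19 on the other WT arrays and 10.19 to 11.12 on the KO arrays, so it largely followed the labels. Spike-in signal was lacking on WT replicate 5, as on WT replicate 2 and KO replicate 3. WT replicates 5 and 2 had the highest WT levels of the 8 genes, 11.16 and 10.18, while KO replicate 3, at 9.90, was in the middle of its group. KO replicate 2 had spike-in signal and a Gapdh ratio of 51.5. Summed levels of cell markers, in which 1 or 2 bright genes such as Gfap, Acta2 and Csf1r weigh most, are given for WT replicate 5 beside the WT range. They were the highest in WT for 9 astrocyte genes (29338, in a WT range of 23780 to 29338), for 8 pericyte and smooth muscle genes (4841, in a range of 2390 to 4841) and for 8 choroid plexus and ependymal genes (2046, in a range of 1229 to 2046). Gene by gene, WT replicate 5 was the highest WT array in 2 of 9 tested astrocyte genes, 4 of 8 pericyte and smooth muscle genes and 2 of 5 choroid plexus and ependymal genes. The sum was the lowest in WT for 9 endothelial genes (4304, in a range of 4304 to 6699). The 9 microglial markers summed to 9430 there, in a range of 6770 to 10529, and the 5 neutrophil and blood markers to 476, in a range of 140 to 806. None of 6 lymphocyte markers was bright enough to be tested. They summed to 38 to 175 over the 10 arrays, and 3 of them stayed below 30 on every array. The part of these features in the level of the 8 genes was not tested.

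Over the 10 arrays, with the group means removed, the genes varied together. Pearson's r over their 28 pairs had a median of 0.865 (Spearman's rho 0.83), with a range of 0.412 to 0.954, and the median over all pairs of tested genes was 0.003. In a permutation test within groups, 21 of the 28 pairs passed an adjusted p of 0.05 by r and 21 by rho. These 21 were all the pairs without Gbp3, with r of at least 0.787 and adjusted p up to 0.022. The share of all gene pairs that would pass such a test is not known here. The 21 pairs share genes and arrays, so they are not 21 separate results. Gbp6 and Irgm2, from different families and chromosomes, had the highest correlation (r = 0.954, permutation p = 0.00019, adjusted p = 0.0018, rho = 0.952). Igtp and Irgm2, neighbours on chromosome 11, were at r = 0.919 (permutation p = 0.00026, adjusted p = 0.0018, rho = 0.939). The 7 pairs with Gbp3 ran from 0.412 to 0.719 and 0 of them passed, the lowest adjusted p being 0.055, with Irgm1 (permutation test, rho = 0.467).

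The 2 arrays farthest from the median were WT replicates 5 and 1. Without both, the median r was 0.79, and 26 of 28 pairs stayed above 0, the lowest being Gbp3 and Irgm2 at -0.015. Without WT replicate 5 alone the median was 0.78, and the lowest value among pairs without Gbp3 was 0.648. With the 7 arrays that had spike-in signal the median was 0.798. Within the WT group the median was 0.904 and within the KO group 0.775. All 8 genes share 10 arrays, their scaling and their amplification.

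Set against each other on the same array, some of the 8 genes differed in mean proportion between the groups, as a description. These comparisons were chosen after the values were seen. Exact permutation p was 0.0079 for Igtp, 0.04 for Gbp6 and 0.18 to 0.85 for the others, not adjusted over the 8 genes. These p-values are not taken as support. The share of all genes that would stand apart on such a measure is not known here. Igtp minus the mean of the other 7 genes, on the log2 scale, was 1.22, 1.24, 1.36, 1.64 and 1.54 on WT replicates 1 to 5. It was 1.21, 0.15, 0.85, 0.65 and 1.11 on KO replicates 1 to 5. All 5 KO values lay below all 5 WT values, though the nearest values, 1.21 and 1.22, almost touched, and the means differed by -0.61. The difference was -0.60 after quantile normalization, -0.63 among arrays with spike-in signal, and between -0.71 and -0.45 when any 1 array was left out. KO replicate 2 had the largest part in it. For Gbp6 the same quantity was 0.94 to 1.73 in WT and 0.78 to 1.10 in KO, groups that overlap, with means differing by -0.43. Differences of the other sign were seen in Gbp3, at 0.56, and Gbp2, at 0.28, and the other 4 genes lay between -0.08 and 0.23. The other Gbp6 probe set differed by less between groups, as given above.

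The probe sets of 1 gene can be compared within an array in the same way. For Gbp2, Gbp6, Gbp7 and Iigp1 the group-centred values of the 2 probe sets correlated at r = 0.926, 0.901, 0.652 and 0.774, given as a description. Without WT replicate 5 the r of Gbp7 was 0.422, and without the 2 farthest arrays it was 0.943. In Gbp7, 1425156_at minus 1434380_at was 0.85, -1.24, -0.55, -0.94 and -0.80 in WT. In KO it was -1.83, -1.20, -1.37, -1.68 and -1.06. The KO mean was lower by -0.89, and WT replicate 1, the only array where the dimmer probe set read higher, set much of this. In a two-sided exact permutation test over 252 arrangements p was 0.024, and for Gbp2, Gbp6 and Iigp1 it was 0.095, 0.079 and 0.56. Adjusted over these 4 comparisons the p for Gbp7 was 0.096. Its comparison, too, was picked out after the values were seen. Without WT replicate 1 the difference was -0.55. Which transcripts of Gbp7 each probe set reads is not given in the sources used here.

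Other interferon-inducible GTPases were measured by 7 of the 15 listed genes, and 6 were bright enough to test. Of these 0 passed limma's threshold and 0 had an unadjusted p under 0.05, with 2 higher and 4 lower in the arrays labelled KO and a median of -0.23. Mx2, an antiviral GTPase, was at -0.70 (SE 0.35, limma adjusted p = 0.313), and Gbp8 was at -0.31 (SE 0.41, limma adjusted p = 0.734). Their median r to the mean of the 8 genes was 0.797, and all 6 were highest of the WT group in replicate 5. Irgq, an IRG-like gene that is not known as an interferon target, was the exception in co-variation, at r = 0.19.

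The ligands were near the floor. Ifng, the gene of interferon-gamma, read 0.9 to 59.7 in WT and 2.9 to 42.2 in KO, and Ifnb1, that of interferon-beta, 3.2 to 28.6 and 0.9 to 11.6. Both were too dim for the test, so their level cannot be set against that of the GTPases. The 4 receptor chains passed the brightness filter, and 0 of them passed the test. Ifnar2 was at 0.18 (SE 0.24, limma adjusted p = 0.728) and Ifngr2 at -0.12 (SE 0.28, limma adjusted p = 0.854). Their median r to the mean of the 8 genes was 0.459, and 0.002 without the 2 farthest arrays. Ifnar2 was the closest chain, at 0.725 and without those arrays 0.422.

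Of the signalling genes and transcription factors 11 were tested, 3 higher and 8 lower in KO, with a median of -0.17. None passed limma's threshold, and 2 had an unadjusted p under 0.05, against 17.2% of all genes. These were Irf1, the factor that switches on many GBP genes, at -0.74 (SE 0.19, limma adjusted p = 0.080), and Irf7 at -0.58 (SE 0.22, limma adjusted p = 0.197). Irf1 read 199 to 361 in WT and 147 to 231 in KO, so the groups overlapped. Its r to the mean of the 8 genes was 0.774, and Usp18, which shuts off type I interferon signalling, was the closest of the list at 0.986. Jak2, a kinase under the interferon-gamma receptor, was at 0.845, and at 0.874 without the 2 farthest arrays. Jak1, another kinase of that receptor, was at 0.405, and at 0.018 without those arrays. The list's median was 0.405, and 0.16 without the 2 farthest arrays.

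Autophagy conjugation proteins place GBPs and IRGs on vacuoles. All 12 genes listed were tested, 6 higher and 6 lower, with a median of -0.01 and 0 past limma's threshold. An unadjusted limma p under 0.05 was seen in 2 of 12, against 17.2% of all genes. Becn1, which starts autophagosome formation, was at 1.12 (SE 0.24, limma adjusted p = 0.056), with 109 to 284 in WT and 259 to 482 in KO. That value came from 1 of 5 Becn1 probe sets, and the other 4 had differences of -0.41 to 0.38. The groups overlapped in all 5. Atg12, a ubiquitin-like conjugation protein, was at 0.55 (SE 0.19, limma adjusted p = 0.146). Its groups stood apart, 183 to 347 against 372 to 523, as in 4.68% of all genes. The median r of these genes to the mean of the 8 GTPases was -0.138, and 0.053 without the 2 farthest arrays.

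Of the inflammasome genes, which act after GBPs expose bacterial LPS, 4 could be tested and 0 passed limma's threshold. An unadjusted limma p under 0.05 was seen in 1 of 4, against 17.2% of all genes. Il18, the cytokine precursor, was at 0.48 (SE 0.20, limma adjusted p = 0.225), with 167 to 337 in WT and 340 to 448 in KO. Casp1, the protease that matures it, was at -0.30 (SE 0.31, limma adjusted p = 0.655). Casp1 and Casp4, which codes for the cytosolic LPS sensor, followed the GTPases at r = 0.915 and 0.894, and Il18 did not, at -0.094.

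Among interferon-gamma targets that are not GTPases 11 were tested, 3 higher and 8 lower in KO, with a median of -0.22 and 0 past limma's threshold. An unadjusted limma p under 0.05 was seen in 3 of 11, against 17.2% of all genes. These were Cd274, Tap1 and Cd74, all lower in KO. Cd274, the gene of the T cell inhibitor PD-L1, was at -0.68 (SE 0.23, limma adjusted p = 0.145) and Tap1, the peptide transporter of antigen presentation, at -0.60 (SE 0.23, limma adjusted p = 0.190). Their median r to the mean of the 8 genes was 0.875, and 9 of 11 were highest of the WT group in replicate 5. Cd74, the invariant chain of MHC class II, differed by -0.54 (SE 0.23, limma adjusted p = 0.230). It was among those that did not follow, at r = 0.083.

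**Figure D4:**
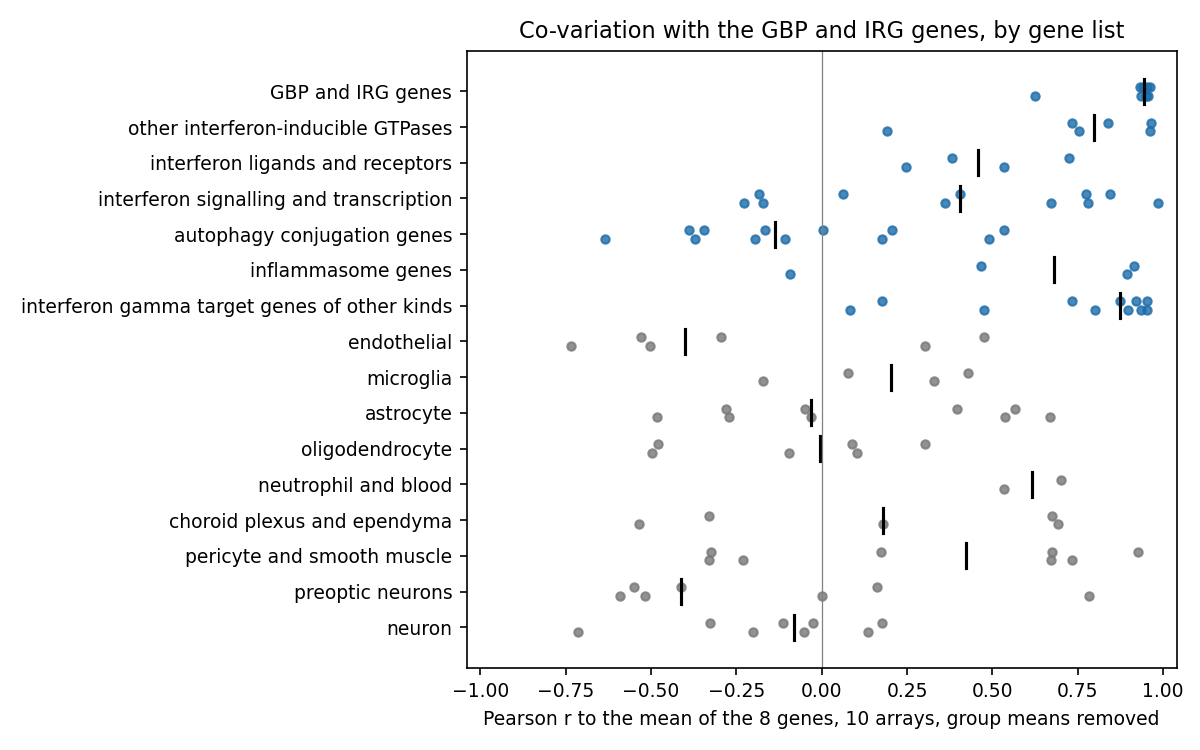
Pearson's r, over 10 arrays with group means removed, between each tested gene and the mean of the 8 GBP and IRG genes, by list (interferon, autophagy and inflammasome lists in blue, cell markers in grey). Each point is a gene and each black line the list median. The 8 genes are part of the mean they are compared with. Interferon-gamma targets had a median of 0.875, and 0.753 without the 2 farthest arrays. The negative medians of endothelial and preoptic neuron markers, -0.40 and -0.41, were 0.084 and 0.109 without those arrays.

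Of all 10908 other genes tested, 49 had an r above 0.9 to the mean of the 8 genes, 0.449%, as a description over 10 arrays. The 10 closest were Usp18 (0.986), Parp14 (0.980), Phf11d (0.972), Gm4951 (0.967), Zc3hav1 (0.967), Oasl1 (0.965), Ifi47 (0.965), Niban1 (0.963), Gbp2b (0.961) and Xaf1 (0.959). Ifi47 and Gbp2b are themselves an IRG and a GBP outside the 9 genes taken here. Without the 2 farthest arrays their r stayed between 0.909, in Niban1, and 0.980, in Gm4951. None of the 10 passed limma's threshold between the groups, with adjusted p from 0.514 for Xaf1 to 0.981 for Gm4951.

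Cell markers moved with the GTPases to different degrees. The median r to the mean of the 8 genes was 0.204 over 4 tested microglial markers, -0.031 over 9 astrocyte markers, and -0.082 over 8 neuronal markers. The 6 tested endothelial markers had a median of -0.40, and all 6 were lower in the arrays labelled KO (median -0.41, 0 past limma's threshold, 3 of 6 at an unadjusted p under 0.05 against 17.2% of all genes). The 4 tested microglial markers (median -0.54) and 2 neutrophil markers (median -0.48) were also all lower, as were 50.9% of all genes. Higher in KO were 6 of 8 neuronal, 4 of 5 choroid plexus and ependymal, 4 of 6 oligodendrocyte and 5 of 7 preoptic neuron markers. Without the 2 farthest arrays, WT replicates 5 and 1, the endothelial median r was 0.084, so its sign rested on them. In the pericyte and smooth muscle list the contractile genes Acta2, Myh11 and Tagln were at 0.927, 0.733 and 0.675, and at 0.918, 0.897 and 0.911 without the 2 farthest arrays. The other 5 genes of that list were mixed, from Abcc9 at -0.33 to Vtn at 0.671, and Abcc9 was at 0.482 and Vtn at 0.795 without those arrays. Of the choroid plexus and ependymal markers Kcnj13 was at 0.691 and Rarres2 at 0.674, and the median of 5 was 0.179. S100a8 and S100a9, abundant in neutrophils, were at 0.702 and 0.533. Acta2 read 681 to 2970 in WT and 352 to 1468 in KO, a difference of -0.54 (SE 0.41, limma adjusted p = 0.511). The part of vessel wall or blood cells in the co-variation of the GTPases was not tested.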

How the data were processed

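RNA of the preoptic region was measured on 10 arrays, 1 per mouse, and titles gave each its group and replicate number. The deposited values were probe set intensities on a linear scale, made by the authors with GCOS per the submitters' processing notes. For GCOS, version, settings and detection calls: not given in the sources used here. Every array had the same mean intensity, 200.002, without its lowest and highest 2%. No 2 arrays shared more than 0.00443% of values.

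Of 45101 probe sets 64 were controls, 34945 named 1 gene, 932 several and 9160 none, by a platform annotation that can be old. By Entrez ID 34741 matched RefSeq (GRCm38.p6), with 0 symbols changed. Each gene was represented by its brightest probe set by mean log2 value, _x_at only where there was no other, and the dimmest 40% of 18193 genes were left out. The test was limma 3.58.1 in R 4.3.3 (lmFit, eBayes with trend) on log2(intensity + 16), which understates changes of dim genes, with genotype as the only term. It was tested on simulated data. Dim genes are given as intensities only. Correlations used group-centred values and 100000 permutations within groups, adjusted over 28 pairs.

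The genes and lists were chosen with earlier results of these data known. Named were all listed GTPases and Ptges, the 2 tested genes with the smallest p in each list, and the 10 genes most like the mean of the GTPases. Genes named beyond this were chosen after their values were seen: Irgq, Jak1, Jak2, Casp4, Cd74, Ifng, Ifnb1 and the cell markers. Same-numbered arrays did not deviate together (correlations of -0.127 to 0.067), so the numbers were not taken as pairs. Each array is a separate mouse, so p-values measure differences between mice along with any from dissection, amplification and hybridization. Settings tried were other pseudocounts, normalizations, filters, choices of probe set, weights for arrays, no trend, a replicate block, a spike-in block or those arrays alone, and leaving out each array. A hybridization covariate was added after the data were seen. Its signal largely followed the labels, so that setting can hardly separate it from genotype. Python 3.11.15 with numpy 2.4.6, pandas 2.3.3, scipy 1.17.1, matplotlib 3.10.9 and Biopython 1.88 served for the rest.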

Additional observations from a re-analysis of the deposited data

Results flagged for a closer look

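Arrays that lay far from the others of their group were sought as those with a gap above Dixon's 95% critical value. The gaps were measured on the log2 scale of the test between the groups, while the values printed here are linear intensities. Such arrays were found in 3 of 60 groups over 30 genes, and chance gives about 1 in 20. None was among the 8 GTPases on that scale. Gaps in linear intensity were not tested. There WT replicate 5 read 3065 for the brighter Iigp1 probe set, against 548 to 1053 on the other WT arrays. For Irgm1 it read 1123, against 196 to 425. Irf1 read 230.7 on KO replicate 1, against 146.7 to 153.8 on the other KO arrays. Casp1 read 56.6 on KO replicate 2, against 100.9 to 123.9. Ifi47 read 1275.6 on KO replicate 2, against 3171.7 to 4591.6. KO replicate 2 was also the lowest KO array in 7 of the 8 GTPases.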

How the results depend on the processing

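In every setting tried 0 of the 8 genes passed limma's threshold. The smallest adjusted p of any of them over all settings was 0.094, with median centring, which moved the median of all genes from -0.01 to 0.27. The count over all genes ran from 0 to 1053, the latter with median centring. The median difference of the 8 genes had no stable sign. It was -0.06 with the replicate block (2 genes called over all, smallest adjusted p of the 8 genes 0.443), -0.13 with quantile normalization, -0.24 with array weights, 0.21 with median centring, 0.16 with the spike-in block, 0.47 among the 7 arrays with spike-in signal and -0.57 with the hybridization control as a covariate. Leaving out 1 array gave -0.32 (without WT replicate 1) to 0.30 (without WT replicate 5). Single genes changed sign as follows. With median centring Iigp1 was at 0.17, Irgm1 at 0.13 and Irgm2 at 0.26. With the spike-in block Iigp1 was at 0.098 and Irgm2 at 0.22, and among arrays with spike-in signal Iigp1 was at 0.30, Irgm1 at 0.46 and Irgm2 at 0.48. With the hybridization covariate Gbp2 was at -0.47 and Gbp7 at -0.020, and with the mean of its probe sets Gbp7 was at -0.33. Leaving out 1 array gave -0.013 to 0.45 for Gbp2, -0.22 to 0.40 for Gbp7, -0.33 to 0.28 for Iigp1, -0.38 to 0.23 for Irgm1, -0.34 to 0.32 for Irgm2, and, with no change of sign, 0.24 to 0.62 for Gbp3, -0.79 to -0.18 for Gbp6 and -0.89 to -0.27 for Igtp. The median SD in WT was 0.55 to 1.06 when 1 array was left out. The cause of these changes was not tested. With 5 arrays a group and this spread, only large differences could have been detected.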
